A study of Rattus norvegicus with 23 samples.

Results

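Daughters were compared with sons among the rats whose dams had breathed filtered air, the comparison that gives the sex difference of the young liver without ozone. The members are the livers of 6 daughters (rats 2, 4, 6, 10, 11 and 12) and 6 sons (rats 27, 28, 29, 32, 33 and 34), chosen by the sex and the maternal treatment on their labels. They are 12 of the 23 livers of the series. Poly(A) RNA of liver was sequenced at about postnatal day 48. The dams of all 12 had breathed filtered air (0 ppm ozone) on gestation days 5 and 6. The other 11 livers came from offspring of dams given 0.8 ppm ozone on those days (6 daughters and 5 sons). The labels' treatment protocol speaks of repeated chamber exposures given to some rats and does not identify them; all library names read 0 ppm. Neither strain nor litter is given in the sources used here, so littermates cannot be recognised. P-values that treat the animals as independent would be too small if animals of the same sex were littermates. With daughters and sons of the same dam they could also be too large.

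The liver is one of the organs that differ most between the sexes in rodents. In rats the difference is set largely by growth hormone, which the male pituitary releases in pulses and the female pituitary more evenly. Pulses activate the transcription factor STAT5b in hepatocytes, and from puberty on they maintain male-type expression of enzymes of steroid and drug metabolism and of secreted urinary proteins. The deposited table lists Ensembl identifiers without gene names, and 0 of the 12792 identifiers tested could be paired with a symbol. Genes are therefore described by level, size of difference and behaviour in each animal, 4 of them by identifier, and the labelled tissue could not be checked against liver markers.

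Library names came in 2 styles, one with "Chemical-" and one with "Chemical0-0" before the ozone level, and the style was kept as a term in the model. The first style held 5 daughters and 3 sons and the second held 1 daughter and 3 sons. Total counts of the 12 libraries ran from 8000476 (rat 6) to 15594791 (rat 11). Several measures of the libraries did not pass a test between the sexes (exact permutation over all arrangements, two-sided, adjusted over 5 measures). Total counts had an adjusted p of 0.449, as did the share of counts in the 10 most abundant genes, which was 24.1% ± 1.26 in daughters and 24.7% ± 0.691 in sons (SD, n = 6 and 6). Within the first name style daughters minus sons was -0.908 percentage points for this share, and within the second, with 1 daughter, 0.72.

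The livers of the sexes were far apart. Component 1 of a principal component analysis of the 12 air livers alone held 59.6% of the variance and component 2 held 7.47%. Daughters lay between -61.4 and -32.6 on component 1 and sons between 34.4 and 59.3, with no overlap. The root mean square log2 difference over genes between a daughter and a son had a median of 0.975 (36 pairs, from 0.787 to 1.161). It was 0.551 between daughters (15 pairs, up to 0.641) and 0.569 between sons (15 pairs, up to 0.608), so the closest daughter and son were further apart than the furthest pair of either sex.

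A sex difference was called in 6183 of 12792 genes, or 48.3% (edgeR, quasi-likelihood F-test, adjusted p below 0.05 by Benjamini-Hochberg). Daughters had the higher level in 3042 genes and sons in 3141, 23.8% and 24.6% of those tested. Most differences were small. Among genes higher in daughters, 1079 differed by less than 1.5-fold, 1147 by 1.5 to 2-fold, 679 by 2 to 4-fold, 76 by 4 to 8-fold and 61 by over 8-fold. The genes higher in sons fell into the same classes with 1022, 1232, 745, 61 and 81. Tested against a difference of 1.5-fold rather than against none, 628 genes (4.91%) were higher in daughters and 561 (4.39%) in sons, together 9.29%. Calls with an estimated difference of at least 2-fold numbered 816 (6.38%) and 887 (6.93%), together 13.3%. In bulk liver, fewer cells of a type and less RNA per cell cannot be told apart.

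**Figure D1:**
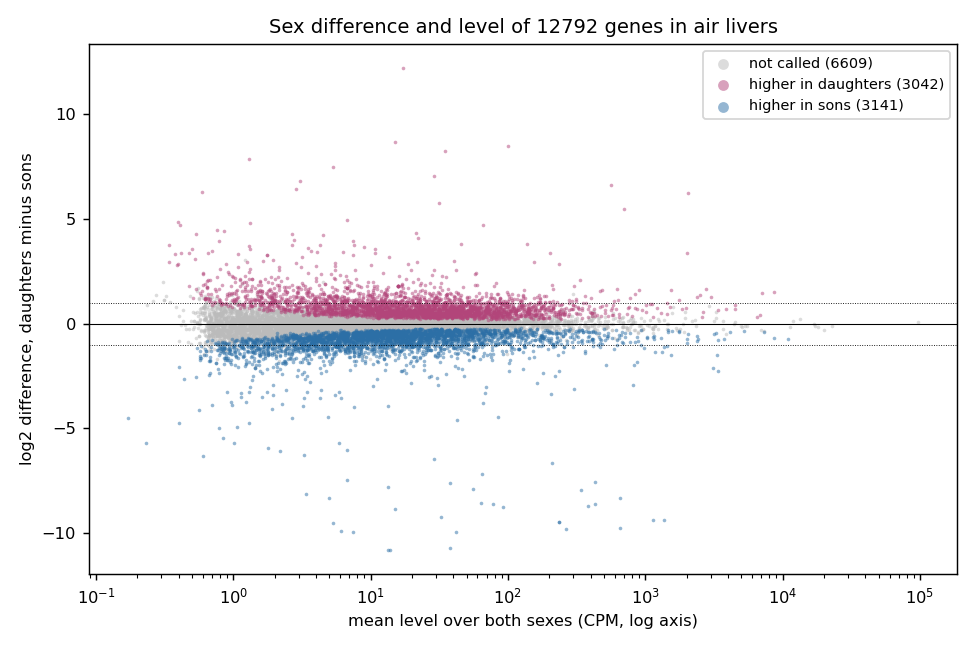
Log2 difference between daughters and sons (y axis; dotted lines mark 2-fold) against the mean level over both sexes in CPM, counts scaled to library size (x axis, log scale), 1 point per gene for 12792 genes; colours mark the 3042 genes called higher in daughters and the 3141 called higher in sons. Called genes spread over the whole range of levels, including genes of over 100 CPM in both directions.

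The sexes were also compared animal by animal, without the model. The 6 levels of daughters and the 6 of sons did not overlap in 3256 genes, 25.5% of those tested, of which 1667 (13%) were higher in daughters and 1589 (12.4%) in sons. All but 42 of them were also called. Non-overlap was more frequent where the difference was larger: it was seen in 33% of the genes under 1.5-fold that were higher in daughters, 62.4% of those of 1.5 to 2-fold, 68.9% of those of 2 to 4-fold and 80.3% of those over 8-fold. For genes higher in sons the shares were 31.4%, 54%, 63.1% and 77.8%. A fold over 8 therefore did not always separate every animal. Fold and overlap come from the same livers, so the rise of these shares with fold is a description.

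Differences were found at every level of expression. Levels are in CPM, counts scaled to an equal library size with TMM factors, which compare a gene between animals but not genes of different length with each other. Of the 752 genes under 1 CPM, 24.5% were called, of 5230 genes from 1 to 10 CPM 40.8%, of 5646 from 10 to 100 CPM 56.7%, of 1045 from 100 to 1000 CPM 57.6% and of 119 over 1000 CPM 55.5%. The direction varied with the class: 886 genes were higher in daughters and 1246 in sons from 1 to 10 CPM, but 1712 and 1487 from 10 to 100 CPM. The numbers were 330 and 272 from 100 to 1000 CPM, 30 and 36 over 1000 CPM, and 84 and 100 under 1 CPM. Calls of at least 2-fold made up 21.1%, 16.1%, 9.9%, 11.8% and 16.8% of the 5 classes, from the rarest to the most abundant. Genes under 1 CPM could pass the low-count filter through 1 group in which they were high. Called genes there also had a larger median absolute log2 difference, 1.44 against 0.62 from 10 to 100 CPM. The shares of the classes are therefore a description.

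The 10 most abundant genes differed little. Among the 10 genes with the highest mean level, 1 was called, higher in sons, and their log2 differences lay between -0.73 and 0.24. Within the 100 most abundant genes 25 were higher in daughters and 30 in sons, and 10 and 9 of these differed at least 2-fold. Extreme differences reached this group too, with log2 differences from -9.38 to 6.22.

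The called genes were 48.3% of those tested, and their share of the counts was near that and slightly under it. Genes higher in daughters held between 25.7% (rat 12) and 32.7% (rat 2) of the counts of each daughter and between 14.6% and 17.5% of those of each son. Genes higher in sons held between 26.1% (rat 29) and 30.5% (rat 32) of the counts of each son and between 14.8% and 17.8% of those of each daughter. These genes were chosen by the same difference, so their shares are a description. Genes with no call held 54.7% ± 1.90 in daughters and 55.3% ± 0.668 in sons. Summed over all tested genes, 15.4% of the CPM of daughters stood above the level of sons and 16.1% of those of sons above the level of daughters. The first sum reached 50% with 57 genes and the second with 54, so a small group of abundant genes carried much of the shift.

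**Figure D2:**
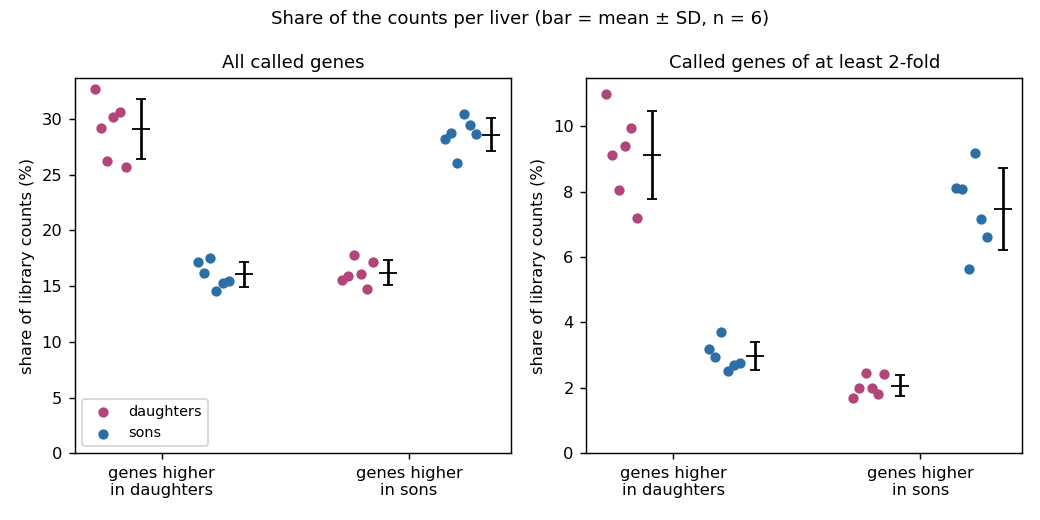
Share of each library's counts (y axis, percent, from 0) in genes called higher in daughters and in genes called higher in sons, for all called genes on the left and for those of at least 2-fold on the right; points are animals, and bars are means ± SD (n = 6 per sex). All called genes higher in daughters hold 29.1% ± 2.72 in daughters and 16.1% ± 1.15 in sons, and rats 12 and 29 are the lowest of their sex in their own genes of at least 2-fold.

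Among 1406 candidates, genes with whole counts, non-overlapping levels and at least 10 CPM in the higher sex, the 2 largest differences in each direction are given in full. ENSRNOG00000004294 had 38.3, 24.5, 54.1, 31.7, 55.5 and 2.50 CPM in daughters 2, 4, 6, 10, 11 and 12, and 0 counts in every son. Daughter 12 stood well under the other 5 but above all sons. The mean of daughters, 34.4 ± 19.9 CPM, was at least 740-fold higher than a floor of 3 counts over the sons' libraries together (edgeR adjusted p = 1.35e-05). In ozone offspring, whose libraries share the model's style term and spread estimate with the air livers, it had 23.9 ± 16.9 CPM in daughters and 0 to 5 counts in each son.

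ENSRNOG00000037549 had 206, 15.2, 297, 134, 540 and 6.59 CPM in daughters 2, 4, 6, 10, 11 and 12. The sons had between 0 and 0.975 CPM, so the sexes did not overlap, although daughters 4 and 12 lay far below the other 4. The mean CPM was 442-fold higher in daughters, and the log2 difference of the model was 8.48 (approximate SE 1.51, edgeR adjusted p = 0.000186). In libraries of the second name style alone, which hold daughter 4 and sons 27, 32 and 33, its log2 difference was 5.19 and did not pass (edgeR adjusted p = 0.138). The spread between daughters was as wide as the mean, 200 ± 200 CPM.

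ENSRNOG00000057231 had 87.1, 72.6, 59.6, 57.4, 58.9 and 54.4 CPM in sons 27, 28, 29, 32, 33 and 34. Daughters had 0 to 0.32 CPM, at most 5 counts in 1 library and 7 counts in all. The sons' mean, 65.0 ± 12.5 CPM, was 833-fold higher as a ratio of mean CPM, and all 6 sons lay within a narrow range. The log2 difference of the model was -9.22 (SE 0.37, edgeR adjusted p = 1.29e-14). Without daughter 11, which held 5 of the 7 counts, it was -10.43.

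ENSRNOG00000001957 was the most abundant of the 4 genes. It had 1060, 805, 1390, 532, 710 and 672 CPM in sons 27, 28, 29, 32, 33 and 34 and between 0.407 and 3.71 CPM in daughters. The sons' mean was 863 ± 314 CPM and 395-fold higher (log2 difference -8.63, SE 0.59, edgeR adjusted p = 4.23e-10). Son 29 had the highest level here. In ozone offspring both genes differed in the same direction, with log2 differences of -10.31 (edgeR adjusted p = 8.15e-15) and -7.36 (edgeR adjusted p = 9.65e-09).

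**Figure D3:**
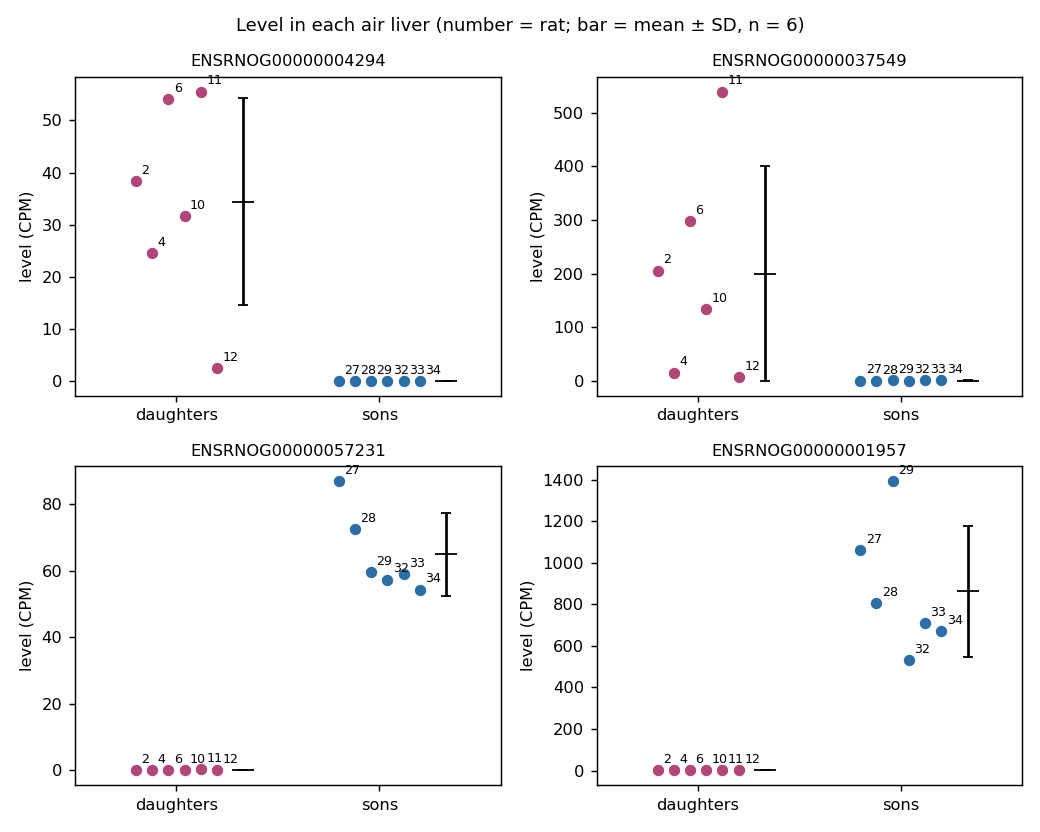
Level in CPM (y axis, linear) of the 4 genes in each air liver, daughters on the left of each panel and sons on the right; points are animals with their rat number, and bars are means ± SD (n = 6). Daughter 12 is the lowest daughter for ENSRNOG00000004294 and ENSRNOG00000037549, and the sons lie between 54.4 and 87.1 CPM for ENSRNOG00000057231.

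Expression in 1 sex alone was rare. At least 1 CPM in every liver of one sex and at most 3 counts over the 6 livers of the other was found for 4 genes in daughters and 7 in sons. Mean levels in the expressing sex ran from 2.62 to 34.4 CPM in daughters and from 3.54 to 75.4 CPM in sons. Counts were fractional in 1 of the 4 and 6 of the 7, as estimated counts become where reads are divided between similar genes. The sex limit did not hold for all of them in ozone offspring: 2 of the 4 kept to 3 counts or fewer over the 5 ozone sons, and 5 of the 7 did so over the 6 ozone daughters. In their own sex, 2 of the 4 reached 1 CPM in every ozone daughter and 6 of the 7 in every ozone son. The lowest levels there were 0 and 0.613 CPM. The highest level of any of the 4 in an ozone son was 9.93 CPM, and that of any of the 7 in an ozone daughter was 0.731 CPM.

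Strongly different genes were mostly near silence in the other sex. Over 8-fold, the median level in the higher sex was 6.97 CPM for genes higher in daughters and 11.2 CPM for those higher in sons. A fold over 8 from such levels leaves a low level in the other sex by itself, so the shares by class are a description. The lower sex had a mean under 1 CPM in 43 of the 61 genes over 8-fold higher in daughters (70.5%) and in 62 of the 81 higher in sons (76.5%). That share was 52.6% and 42.6% at 4 to 8-fold, and 16.6% and 22.4% at 2 to 4-fold. Among genes over 8-fold, 11 of the 61 and 18 of the 81 had at most 3 counts over the lower sex, and all of these were above 8-fold also when set against a floor of 3 counts. In the higher sex 23 of the 81 genes and 8 of the 61 were over 100 CPM, a difference that was not tested; at 2 to 4-fold these were 61 of 745 in sons and 84 of 679 in daughters.

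Among called genes, the strongly different ones varied more within the sex that expressed them than weakly different ones did. A gene of wide spread passes the call more readily when its difference is large, so this comparison is a description. Among genes with at least 10 CPM in the higher sex, the median SD of log2 CPM over its 6 animals was 0.33 at 2 to 4-fold in both directions. At 4 to 8-fold it was 0.45 in daughters and 0.49 in sons, and over 8-fold 0.97 and 1.08. A spread of at least 10-fold between the highest and lowest animal of the expressing sex was seen in 29.6% of the 27 genes over 8-fold higher in daughters and in 29.5% of the 44 higher in sons. At 2 to 4-fold it was seen in 0.271% and 0.599%.

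In sons the low values fell mainly in the same animals. For the 44 genes over 8-fold, the median level relative to the mean of the 6 sons was 1.37 in son 27, 1.24 in son 28, 1.34 in son 32, 0.905 in son 33, 0.506 in son 34 and 0.265 in son 29. Son 29 had the lowest level of the 6 in 31 of the 44. Sons 29 and 34 were both below the other 4 sons in 29 genes, 27 of which had fractional counts. Sons 28, 29 and 34 had the first name style and sons 27, 32 and 33 the second. These levels were not adjusted for style, and its part in the pattern was not tested. The 44 genes are not independent measurements, since 37 have fractional counts and so may share reads, and 1 pair had the same values in every library within 1% and 1 count. Among the 7 with whole counts son 29 was lowest in 3.

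The choice of the 44 genes used son 29 itself, so each animal was also set against genes chosen without it. This comparison and the count for sons 29 and 34 were chosen after the values were seen. In the fit without son 29, 46 genes of at least 10 CPM were over 8-fold higher in sons. Son 29 lay below all 5 other sons in 34 of them (73.9%), with a median of 0.224 of their mean. For the other sons the share ran from 2.38% (son 27) to 14.9% (son 34). Of 30 genes over 8-fold higher in daughters, son 29 lay above all other sons in 13 (43.3%), against 3.85% to 23.1% for the others. Among daughters, daughter 12 was below all other daughters in 12 of 28 genes (42.9%) and daughter 2 in 9 of 26 (34.6%). Daughter 11 was above all other daughters in 18 of 44 genes over 8-fold higher in sons (40.9%), and daughter 10 in 0 of 43.

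Among the 46 genes chosen without it, son 29 had at least 0.5 of the mean of the other sons in 12, so the low level was not shared by all of them. Son 29 had 10535323 counts, within the range of the other sons (9352425 to 12645906). Its distance from the mean of the other 5 sons over all genes was 0.469 on the log2 scale, the largest of the 6, and that of son 33 was 0.459. What sets the level in son 29 was not tested.

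**Figure D4:**
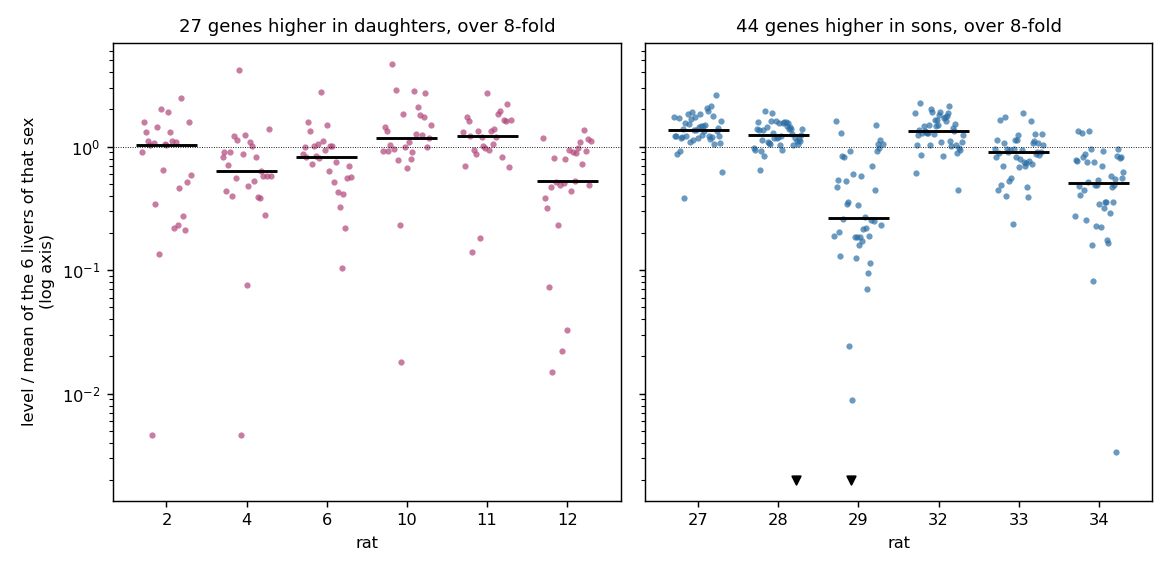
Level of each gene over 8-fold different and of at least 10 CPM, divided by the mean of the 6 livers of the expressing sex (y axis, log scale), by rat (x axis), for 27 genes higher in daughters on the left and 44 higher in sons on the right; points are genes, black lines are medians, and triangles at the lower edge mark levels of 0. Son 29 has a median of 0.265 and son 34 of 0.506, while sons 27, 28 and 32 lie at 1.37, 1.24 and 1.34.

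The position of each animal between the sexes was examined over all called genes in the same way, with the genes called without that animal. Between 5211 and 6295 genes were called. Every animal was nearer to its own sex in most of them, but not to the same degree: 92.7% and 93.6% of genes placed daughters 2 and 11 on the female side, and 69% and 75.6% placed daughters 6 and 12 there. In sons the share on the male side ran from 76.8% (son 27) to 92.5% (son 32). On an axis with the mean of the other sons at 0 and that of the other daughters at 1, over genes of at least 2-fold, daughters lay at 0.96 ± 0.15 and sons at 0.06 ± 0.12 (SD, n = 6 and 6). The daughters nearest to sons were rats 12 and 6, at 0.77 and 0.78, and the sons nearest to daughters were rats 29 and 27, at 0.19 and 0.18. Son 27 was thus among the nearest over these genes and had the highest median level of the 6 at the 44 strongest male genes.

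No difference in spread among animals passed between the sexes. The distance of each liver from the mean of the other 5 of its sex, as a root mean square of log2 CPM over all genes, was 0.431 ± 0.0326 in daughters and 0.437 ± 0.0239 in sons. The difference of -0.005 did not pass (exact permutation, two-sided, p = 0.773, adjusted p = 0.773; the smallest possible is 0.00216), and its sign changed when daughter 4, 10, 11 or 12 was left out. Over the 6153 genes with at least 10 CPM in both sexes, the SD was larger in daughters in 55.4%. The number of genes detected at equal depth was 14940 ± 388 in daughters and 14700 ± 216 in sons (exact permutation p = 0.214, adjusted p = 0.449). Daughters minus sons was 403.7 genes within the first name style and -121.7 within the second, so the sign was not the same in both. It also turned with the threshold: with an expected count of 5 in place of 1, daughters minus sons was -131 genes (exact permutation p = 0.121).

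Genes with fractional counts were more frequent among the strongest differences. Fractional counts were present in 35.5% of all tested genes, 38.3% of called genes, 42.5% of calls of at least 2-fold and 58.5% of calls over 8-fold. Genes with whole counts were called in 46.3% of 8248 and those with fractional counts in 52.1% of 4544. In the first group 59 genes were over 8-fold different (0.715%) and in the second 83 (1.83%). For genes with fractional counts the level of a single member of a family is uncertain.

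The livers of ozone offspring, which share no animal with the air livers but enter the same model, held the same genes in another group of daughters and sons. Name styles were spread the other way there: 1 ozone daughter and 4 ozone sons had the first style and 5 and 1 the second. Sex was called in 6.07% of genes. Among the 81 genes over 8-fold higher in air sons, 69 (85.2%) were called in the same direction in ozone offspring, and among the 61 higher in air daughters 28 (45.9%). Without ozone son 77, when 389 genes were called in place of 776, these were 57 and 20, and they were 25 and 15 in the first style alone and 61 and 11 in the second. At 2 to 4-fold 8.72% and 13.5% were called in that direction, and under 1.5-fold 4.7% and 3.8%. The sign alone, called or not, was the same in 56.6% of the genes of 2 to 4-fold higher in air sons. Their median log2 difference in ozone offspring was -0.05. For those higher in air daughters the sign was the same in 78.8%, with a median of 0.25. Under 1.5-fold it was the same in 55% and 56.1%, and over 8-fold in 92.6% and 85.2%, sons first. The classes were set on the air livers, so the smaller shares are a description. An interaction term tested whether the sex difference differed between air and ozone offspring, and it passed in 1357 genes (10.6%; edgeR, adjusted p below 0.05). That count did not hold. It was 3108 without the style term, and 0 within the first style and 0 within the second (edgeR; 1788 and 1679 genes at an unadjusted p below 0.05), where some groups have 1 animal. It was also 0 without daughter 4, son 34 or ozone son 77 (edgeR; 3180, 3556 and 3167 at an unadjusted p below 0.05) and 1 without son 29. No gene is therefore described as different between air and ozone offspring. At the strongest male genes ozone son 79, 1 of the 4 with the first style, had the lowest level of 5 in 35 of the 44 genes.

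**Figure D5:**
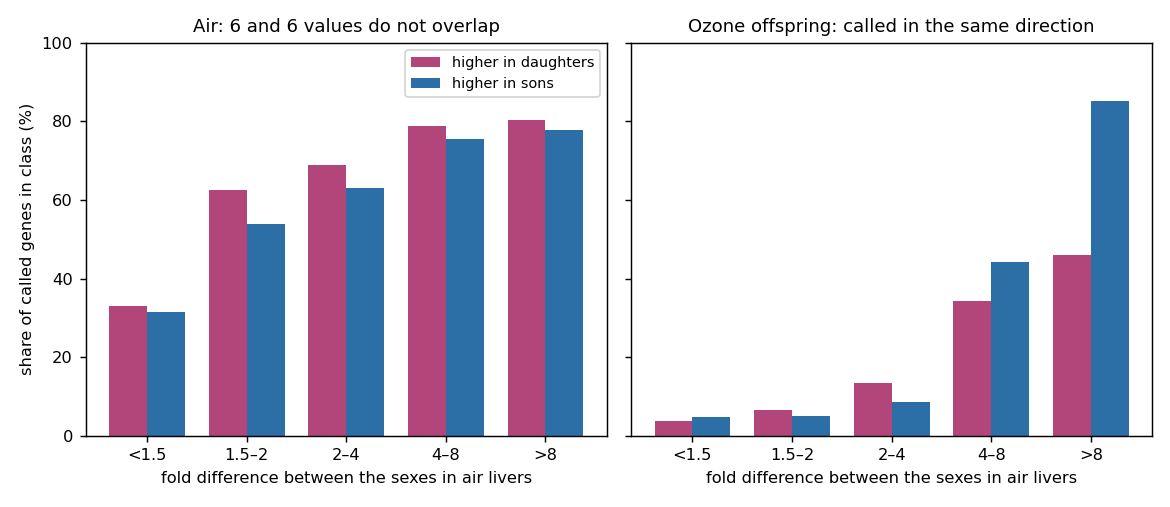
Share of called genes (y axis, percent) by the fold difference between the sexes in air livers (x axis), for genes higher in daughters and in sons; the left panel shows genes whose 6 and 6 air values do not overlap, the right panel genes called in the same direction in ozone offspring. Both shares are highest over 8-fold, at 80.3% and 77.8% on the left and 45.9% and 85.2% on the right.

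Most calls did not depend on a single animal. Left out in turn, any of the 12 animals gave between 5211 and 6295 calls, and 4491 of the 6183 (72.6%) were called in the same direction in all 12 fits, as were 1495 of the 1703 of at least 2-fold (87.8%). The tests beyond 1.5-fold depended more on single livers: without daughter 4, the only air daughter of the second name style, they gave 376 and 318 genes higher in daughters and sons, and without son 34 they gave 371 higher in sons. Libraries of the first style alone gave 4561 calls, of which 4338 were also calls of all libraries in the same direction. In the second style alone, with 1 air daughter, 99.3% of the genes called with all libraries kept their sign. All animals of either style also entered the fit that chose these genes, so neither result is an independent check.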

How the data were processed

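Per the submitters' processing notes, reads were processed with STAR 2.6.1d, Partek and DESeq2 on the rn6 build; annotation and counting settings were not found there. The authors deposited estimated counts for 18056 Ensembl identifiers in 23 libraries; 19.8% of values were fractional (over 1e-06 from a whole number), and gene families that share reads are uncertain. Rounded values entered edgeR 4.0.16 (R 4.3.3), where filterByExpr kept 12792 genes holding 99.91% of counts, and TMM gave the scaling factors. The quasi-likelihood model had a mean for each of 4 groups and a library-name style term over all 23 libraries (18 residual degrees of freedom), and p-values were adjusted by Benjamini-Hochberg at 0.05. Log2 CPM used a prior count of 2. glmTreat tested against 1.5-fold. Approximate SEs are the log2 difference divided by the square root of F. P-values of the model set the sex difference against the spread between animals within groups, estimated over all 23 libraries. On counts simulated for the 12792 genes of this comparison, 50 genes were changed at each of 4 folds and 12592 were left unchanged. Of those changed 1.5-, 2-, 4- and 8-fold, 30%, 58%, 94% and 94% were called, and 4.83% of calls were unchanged genes. In the real data 48.3% of genes were called, so the adjustment was stricter in the simulation and these shares do not carry over. Pairs of livers of the same sex differed by a chi-square of at least 13.3 per degree of freedom, so none was a copy. The rule for named genes without symbols took 2 identifiers per direction with the largest log2 difference among calls with whole counts in every library, at least 10 CPM in the higher sex and no overlap; ozone libraries enter it through the fit and the whole counts. The 19 pathway and 10 marker lists could not be tested, since none of the 47357 genes in the RefSeq table (GRCr8) comes with an Ensembl identifier. The comparison and lists were chosen with earlier results of these data known. Alternatives were DESeq2 1.42.0, limma 3.58.1 voom, other filters, factors, sample sets and left-out animals.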

Additional observations from a re-analysis of the deposited data

Results flagged for a closer look

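Dixon's test was applied to 44 groups of values and singled out an animal in 3, all of them levels of single genes near 0; by chance about 1 group in 20 would be singled out. ENSRNOG00000037549 had 3.916 CPM in ozone son 76, with the next ozone son at 0.439 CPM. ENSRNOG00000057231 had 0.3196 CPM in air daughter 11, where 5 counts were seen, with the next at 0.0789 CPM. The same gene had 0.3133 CPM in ozone daughter 56, on 3 counts, with the next at 0.0868 CPM. The sex difference passed a test of difference between air and ozone offspring in 1357 genes by the interaction term (edgeR adjusted p below 0.05), but in 0 genes within either name style (edgeR; 1788 and 1679 at an unadjusted p below 0.05), where some groups have 1 animal, and in 0 without daughter 4, son 34 or ozone son 77 (edgeR; 3180, 3556 and 3167 unadjusted). For the 4 genes given by identifier the interaction did not pass, with adjusted p of 0.227, 0.853, 0.473 and 0.268 (edgeR) for ENSRNOG00000004294, ENSRNOG00000037549, ENSRNOG00000057231 and ENSRNOG00000001957.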

How the results depend on the processing

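The count of 6183 stayed within 1.5 times, and 0 genes called in both fits changed direction, with the 12 air libraries alone (6002), no style term (6603), the first name style alone (4561), RLE factors (6180), no low-count filter (6106), DESeq2 (6334), limma voom (6161) and at least 10 counts in every library (5472). The second style alone, with 1 air daughter assumed to vary like the other groups, gave 216 calls (130 higher in daughters, 86 in sons), 128 and 86 of at least 2-fold and 53 and 54 beyond 1.5-fold. Without genes of fractional counts, where 8240 genes were tested, 3833 were called (1898 and 1935), 498 and 485 of at least 2-fold and 345 and 287 beyond 1.5-fold. At least 10 counts in every library left 511 and 543 of at least 2-fold. This filter removes genes near silence in 1 sex and also genes low in both, and the calls lost to each were not counted. The first style alone gave 389 and 326 beyond 1.5-fold. With 1 animal left out, the tests beyond 1.5-fold gave 376 to 714 genes higher in daughters and 318 to 709 higher in sons. Fits of the sex difference in ozone offspring and of its interaction under other style settings and without each animal were chosen after the data were seen. The interaction count of 1357 was 3108 without the style term, 0 in either style alone (edgeR; 1788 and 1679 at an unadjusted p below 0.05), and 0 to 2729 with 1 animal left out. It moved over 1.5 times without daughters 2, 4, 10 and 11, sons 28, 29 and 34, ozone daughters 55, 57 and 59 and all 5 ozone sons in turn. The 776 calls by sex in ozone offspring became 72 and 231 in the first and second style alone and 389 (without ozone son 77) to 854 with 1 animal left out. The distance within a sex, daughters minus sons, turned from -0.005 to 0.024 over the 1000 most abundant genes and ran from -0.021 to 0.016 with 1 animal left out; genes detected turned from 242.3 to -131 with an expected count of 5. None of these passed. No paired analysis was possible because litter is not given, so daughters and sons of the same dam could not be matched. The tests beyond 1.5-fold were not run with DESeq2 or limma voom. Counts limit the precision of rare genes.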
